A study of Rattus norvegicus with 16 samples.

Results

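The genes described here are 60 genes of DNA replication and mitosis in PCCl3 cells, a line of rat thyroid follicular cells, after silencing of the transcription factor *Pax8*. They were chosen by name as 27 genes that act in S phase, 29 that act in mitosis and 4 other genes that mark proliferating cells, and a probe was assigned to a gene only when its RefSeq transcript accession resolved to the symbol. By this rule 29 of the 60 genes had a probe on the array, 13 of S phase, 15 of mitosis and *Lmnb1* of the other genes, of 8899 named genes and 39143 features in all, where a feature is a named gene or a probe left without a name. A total of 7 members had 2 probes and the others 1, and all 36 probes were well above background in both dyes on every array. The other 31 listed genes, among them *Mcm2* to *Mcm6*, *Cdc6*, *Cdt1*, *Top2a*, *Mki67*, *Ttk*, *Mad2l1* and *Bub1b*, were not analysed here.

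A cell copies its DNA once per cycle. Origin recognition and helicase proteins mark the start sites, primase and the DNA polymerases make the new strands, a sliding clamp holds the polymerases on the DNA, and nucleases and ligase join the pieces. Cyclins with *Cdk1*, the Polo and Aurora kinases, the spindle motors and the anaphase machinery then divide the chromosomes. Genes of the first group are classical targets of E2F factors and peak around S phase, whereas those of the second peak later and are known for promoters with CHR elements and NF-Y boxes. Differentiated thyroid cells in culture divide in response to thyrotropin and insulin. The medium used here contained serum and a hormone mixture, whose members the study's methods do not name.

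All groups were PCCl3 cells. RNA of si*Pax8* cells, which received an siRNA against *Pax8*, was hybridized on 2-colour arrays against RNA of wild type (wt) cells or of siScramble cells, which received a scrambled siRNA. Both siRNAs were delivered by lipofection at 10 ng/ml, and the cells were harvested 48 hours later. Transfection is therefore shared by si*Pax8* and siScramble cells. The labels call the control without siRNA wild type, the study's methods list it as cells that were given the lipofection reagent, and a supplement calls it not transfected, so whether wt cells had contact with the reagent is not settled here. Each comparison had 4 biological replicates, each hybridized with si*Pax8* in Cy5 and again in Cy3, which makes 8 arrays per comparison and 16 in all. The si*Pax8* samples of both comparisons are the same by the design scheme, so the comparisons are not independent, and their values are given side by side. A value is the log2 of si*Pax8* over its control, averaged over the dye swap of a replicate, and is negative when the gene was lower in si*Pax8* cells. Means are given ± SD over the 4 replicates, and each adjusted p is that of limma over all features.

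*Pax8* mRNA itself was reduced in part. Its log2 ratios over wt were -0.84, -0.57, -0.59 and -0.26 in the 4 replicates, with a mean of -0.56 ± 0.24 (SD; adjusted p = 0.000452). Over siScramble they were -0.58, -0.29, -0.12 and -0.007, with a mean of -0.25 ± 0.25 (SD; adjusted p = 0.142), and this second difference did not pass the limma test at the threshold used throughout, an adjusted p below 0.005. As a check of the thyroid label, 9 of 10 thyroid identity genes had a named probe and the si*Pax8* signal of all 9 exceeded background on every array. Of 10 genes of other cell types 6 had a named probe, with ratios from -0.15 to 0.30 over wt and from -0.03 to 0.02 over siScramble. *Pecam1* of endothelium and *Col3a1* of fibroblasts were above background on 0 arrays in si*Pax8* cells, and *Col1a2*, *Calca*, *Cd68* and *Des* on all. *Cd68*, a macrophage marker that other cells can also express, rose against wt at 0.30 ± 0.12 (SD; adjusted p = 0.000752), and the muscle gene *Des* fell at -0.15 ± 0.03 (SD; adjusted p = 0.00364), while neither was called against siScramble. Their part in the results below was not tested. The share of spots that exceeded background ran from 52.9% to 59.5% in Cy3 and from 51% to 57.9% in Cy5. The arrays lay on 4 slides, each with 2 arrays of each comparison, and were scanned on 1 day.

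Replication and mitosis genes were lower as a group in si*Pax8* cells against both controls, by a modest amount. Over wt the mean log2 ratio of 28 of the 29 measured members lay below 0, with a median of -0.24, and 27 of them were below 0 in all 4 replicates. Over siScramble 28 members also lay below 0, with a median of -0.19, and 25 were below 0 in all 4 replicates. The medians of all 39143 features were -0.0038 and -0.0036, and 52.8% and 53.3% of them lay below 0. The members were chosen with earlier results of these data known, so these counts describe them and are not a test. Further genes of both processes, given below, had smaller shifts. The exception in both comparisons was *Aurkb*, which was higher. In bulk RNA a smaller share of cycling cells and less mRNA per cell cannot be told apart.

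By limma, 22 of the 29 members fell against wt and 1 rose, with 6 not called. Among all features 8.22% were called lower and 6.84% higher, and among named genes 10.6% and 8.44%. Against siScramble 6 members fell (*Ccna2*, *Ccnb1*, *Ccnb2*, *Kif2c*, *Stmn1* and *Orc1*) and *Aurkb* rose, with 22 not called. The share of all features called lower there was 0.879% and the share called higher 1.2%, and among named genes 1.51% and 2.05%. The 5 members that fell against both controls were *Ccna2*, *Ccnb1*, *Ccnb2*, *Kif2c* and *Orc1*, and the 5 not called in either comparison were *Cdc25b*, *Cdc20*, *Kif22*, *Mcm7* and *Pola2*. At a limma adjusted p below 0.05, 25 members were lower against wt, beside 14.2% of all features. Against siScramble 21 were, beside 4.78%.

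The counts moved with the replicates and the scanner values used. Against wt 22, 16, 12 and 13 members were called lower without replicate 1, 2, 3 or 4, where the shares of all features called lower were 9.16%, 5.05%, 4.4% and 4.99%. Against siScramble 1, 0, 0 and 2 members were, at 0.304%, 0.0843%, 0.141% and 0.332% of all features. Across these fits the members' counts thus moved together with the calls over the whole array. Each time 28 of 29 members lay below 0. This count had little room to move, since 27 members over wt and 25 over siScramble were below 0 in all 4 replicates. *Aurkb* was above 0 in all 4. Of the 22 calls against wt, 12 were kept whichever replicate was left out (*Birc5*, *Prim1*, *Pttg1*, *Ccnb2*, *Aurka*, *Prim2*, *Plk1*, *Rfc2*, *Rpa2*, *Ccnb1*, *Orc1* and *Rfc3*), and 0 of the 6 against siScramble were. With the ratios of Agilent's own processed signals, 1 member was called lower against wt and 0 against siScramble, at 1.81% and 0.0128% of all features, and again 28 of 29 lay below 0 in each comparison.

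**Figure D1:**
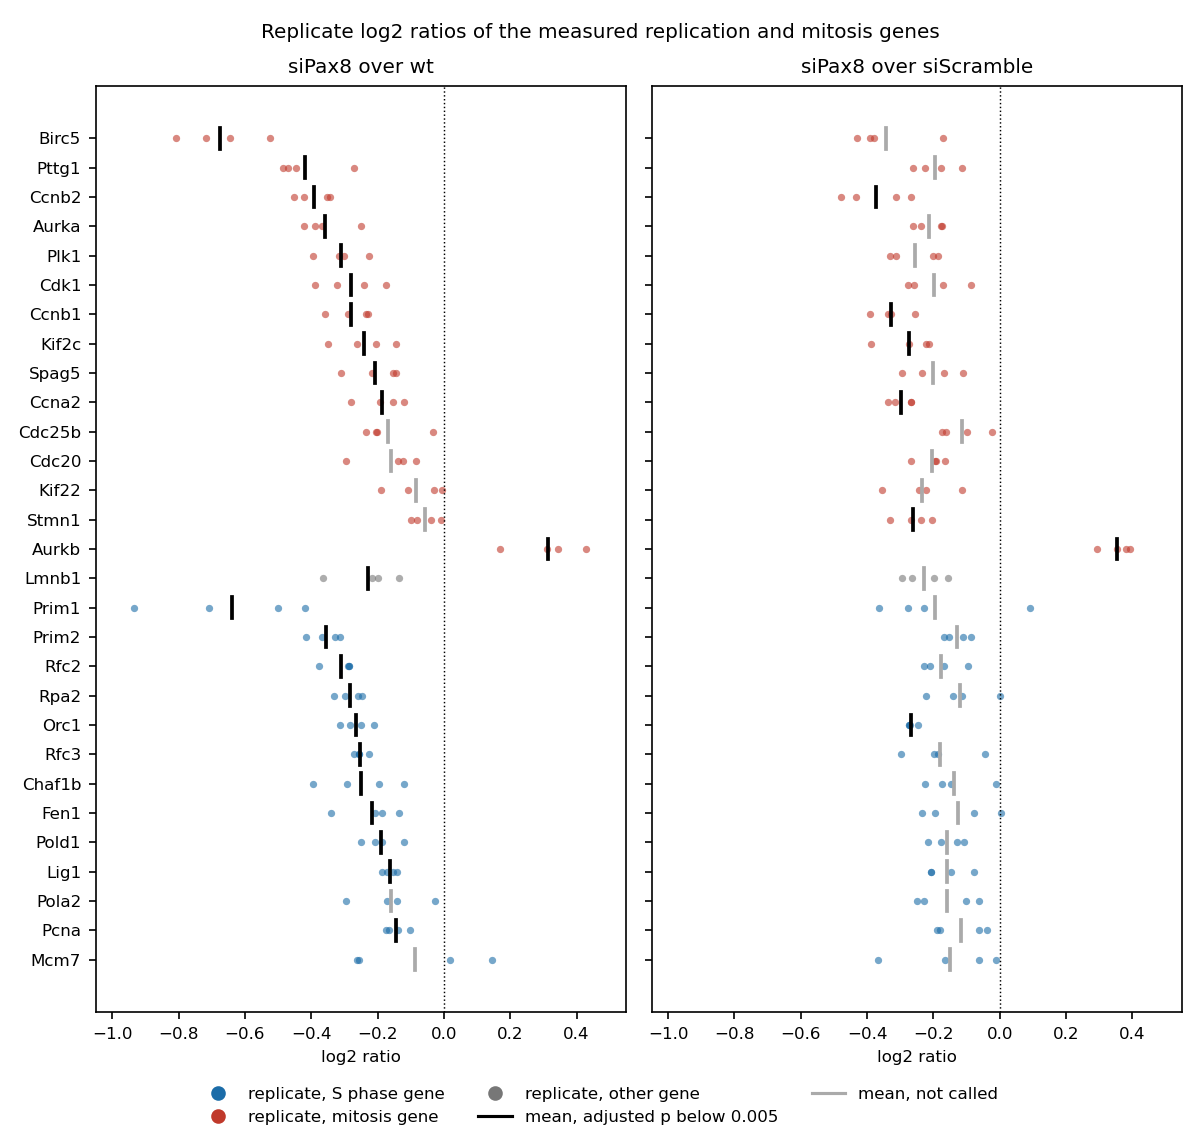
Log2 ratios of si*Pax8* over wt (left) and over siScramble (right) for the 29 measured genes, 1 point per replicate (dye swap averaged) and a bar at the mean, black where the limma adjusted p is below 0.005. The points of *Aurkb* lie right of 0 in both panels and nearly all others left of it, with *Birc5* and *Prim1* farthest left over wt.

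The promoters of the members are shown because genes of the same phase are known to share short motifs in them. RefSeq windows (assembly GRCr8) from 250 bases before to 50 after the annotated start were taken for 26 of the 29 measured members, the first listed window for the 1 member with several, and those of *Ccna2*, *Orc1* and *Aurkb* were not used here. Both strands were searched for E2F sites (TTTCCCGC, TTTGGCGC, TTTCGCGC or TTTGCCGC), CHR elements (TTTGAA or TTCGAA), the NF-Y box CCAAT and a core of Pax sites (GCGTGAC), and the letters of no motif contain those of another. The windows below are those of the members with the lowest ratio over wt in each phase, *Birc5* and *Prim1*, of *Ccnb2*, the lowest over siScramble, and of *Rfc3*, which holds 2 E2F matches beside its start. They are written 5′ to 3′ on the strand of the gene, with every motif match in capitals.
*Birc5*, chr10:103571896-103572195, plus strand: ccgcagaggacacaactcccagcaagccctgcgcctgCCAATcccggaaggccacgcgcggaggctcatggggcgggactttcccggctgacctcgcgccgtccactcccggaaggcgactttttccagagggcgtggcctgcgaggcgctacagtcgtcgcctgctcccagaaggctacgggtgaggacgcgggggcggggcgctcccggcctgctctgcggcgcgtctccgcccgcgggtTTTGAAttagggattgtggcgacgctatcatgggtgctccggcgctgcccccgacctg
*Ccnb2*, chr8:79981609-79981908, minus strand: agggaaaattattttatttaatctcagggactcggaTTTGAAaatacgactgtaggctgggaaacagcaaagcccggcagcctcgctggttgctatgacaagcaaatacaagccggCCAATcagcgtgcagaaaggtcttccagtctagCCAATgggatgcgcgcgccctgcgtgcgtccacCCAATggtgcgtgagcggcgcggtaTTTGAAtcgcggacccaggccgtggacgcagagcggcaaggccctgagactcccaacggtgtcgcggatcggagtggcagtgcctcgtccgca
*Rfc3*, chr12:5836318-5836617, plus strand: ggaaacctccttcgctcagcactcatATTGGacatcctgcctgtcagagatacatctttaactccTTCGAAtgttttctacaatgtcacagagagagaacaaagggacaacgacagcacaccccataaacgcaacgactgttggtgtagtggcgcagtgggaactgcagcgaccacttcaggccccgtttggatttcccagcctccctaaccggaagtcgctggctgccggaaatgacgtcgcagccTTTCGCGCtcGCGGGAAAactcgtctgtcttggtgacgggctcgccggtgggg
*Prim1*, chr7:1031212-1031511, plus strand: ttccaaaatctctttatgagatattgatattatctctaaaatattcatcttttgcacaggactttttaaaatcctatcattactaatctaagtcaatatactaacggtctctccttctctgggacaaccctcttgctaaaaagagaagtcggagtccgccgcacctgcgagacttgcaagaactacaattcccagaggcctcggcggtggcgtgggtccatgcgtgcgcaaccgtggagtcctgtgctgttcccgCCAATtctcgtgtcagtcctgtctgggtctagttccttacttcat

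In the *Ccnb2* window 3 CCAAT matches began at positions -134, -101 and -68 from the start, followed by a CHR match (TTTGAA) at -43, with another at -214. *Birc5* had a CHR match at -8 and a CCAAT at -213. The *Rfc3* window had E2F matches at -3 (TTTCGCGC) and 8 (GCGGGAAA, the other strand's letters), and that of *Prim1* held a single CCAAT, at 6. Of the mitosis members with a window, 9 of 13 (69.2%) held both a CHR and a CCAAT match, against 2 of 12 S phase members (16.7%), 7.83% of the windows of all 27457 genes and 7.44% of those of measured named genes. E2F matches were present in 4 of 12 S phase members (33.3%: *Mcm7*, *Rfc3*, *Lig1* and *Rpa2*) and 2 of 13 mitosis members (15.4%: *Cdk1* and *Stmn1*), against 2.25% of all windows. The Pax core matched 1 member, *Spag5* at -78, against 2.09% of all windows. A match is a description of the letters and says nothing of binding, and the shares were not tested.

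**Figure D2:**
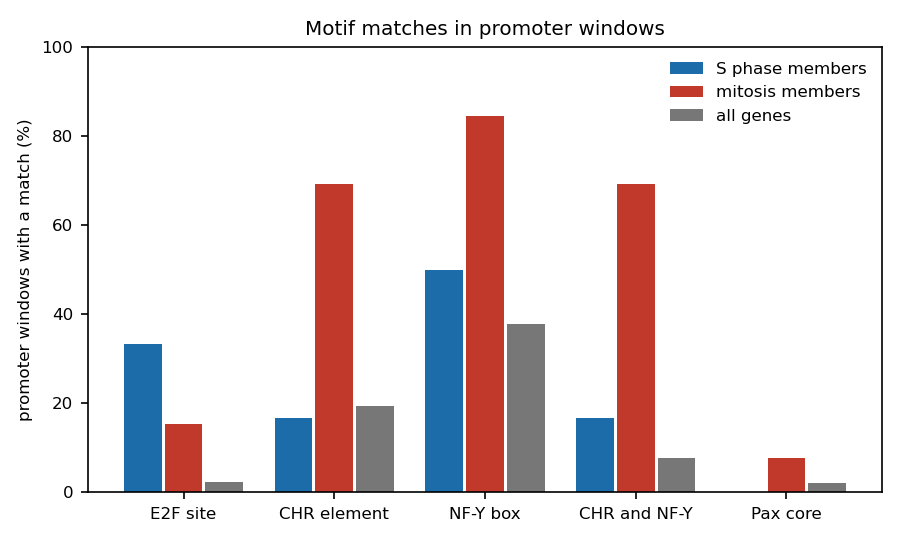
Share of promoter windows (in %) with at least 1 match on either strand for each motif, in 12 S phase members, 13 mitosis members and 27457 genes. The bar for CHR elements together with NF-Y boxes stands at 69.2% in mitosis members, and the bar for E2F sites at 33.3% in S phase members.

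Origin licensing was represented by *Orc1* and *Mcm7*. *Orc1*, the largest subunit of the origin recognition complex, had log2 ratios of -0.28, -0.31, -0.21 and -0.25 over wt and -0.27, -0.27, -0.25 and -0.27 over siScramble. Its means, -0.26 ± 0.04 (SD, n = 4; adjusted p = 0.000202) and -0.27 ± 0.01 (SD, n = 4; adjusted p = 0.0012), were nearly equal, and no other S phase member was called against siScramble. *Mcm7*, a subunit of the helicase that unwinds the origins, varied between replicates, from -0.26 to 0.15 over wt, with means of -0.09 ± 0.20 (SD; adjusted p = 0.432) and -0.15 ± 0.16 (SD; adjusted p = 0.184). Its replicates lay on both sides of 0 over wt.

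The sliding clamp and the complex that loads it fell in all 3 measured members against wt, beside 8.22% of all features called lower. *Rfc2*, a subunit of the clamp loader, had log2 ratios of -0.29, -0.29, -0.29 and -0.38 over wt, a mean of -0.31 ± 0.04 (SD; adjusted p = 7.76e-05), against -0.18 ± 0.06 (SD; adjusted p = 0.0144) over siScramble. *Rfc3* of the same complex had -0.26, -0.27, -0.23 and -0.26 over wt, and its SD was among the smallest of the members, at -0.25 ± 0.02 (SD; adjusted p = 0.000158). Over siScramble its 4 values spread from -0.30 to -0.04, with a mean of -0.18 ± 0.10 (SD; adjusted p = 0.0396). *Pcna*, the clamp itself, passed the threshold narrowly, at -0.14 ± 0.03 (SD; adjusted p = 0.00487) over wt and -0.12 ± 0.08 (SD; adjusted p = 0.0949) over siScramble. The 2 *Pcna* probes gave -0.19 and -0.10 over wt, and -0.09 and -0.14 over siScramble. Its call over wt was kept in 1 of the 4 fits with a replicate left out. All 12 values of the 3 genes were below 0 in each comparison.

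Over wt the lowest S phase ratio was that of a primase subunit, whereas over siScramble it was that of *Orc1*. *Prim1*, its catalytic subunit, had log2 ratios of -0.71, -0.50, -0.93 and -0.42 over wt, with a mean of -0.64 ± 0.23 (SD; adjusted p = 0.000194), or 64.2% of the wt level. Over siScramble the values were -0.23, 0.09, -0.36 and -0.28, with a mean of -0.19 ± 0.20 (SD; adjusted p = 0.16). Thus all 4 replicates were low over wt, while over siScramble replicate 2 stood above 0. The 2 *Prim1* probes gave -0.62 and -0.66 over wt, and -0.18 and -0.21 over siScramble.

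*Prim2*, the regulatory subunit of primase, had log2 ratios of -0.42, -0.33, -0.37 and -0.31 over wt and -0.17, -0.11, -0.15 and -0.09 over siScramble. The lowest value over siScramble was higher than every value over wt, with means of -0.13 ± 0.04 (SD; adjusted p = 0.0275) and -0.36 ± 0.05 (SD; adjusted p = 3.43e-05). *Pold1*, the catalytic subunit of polymerase delta, had -0.21, -0.19, -0.12 and -0.25 over wt, with a mean of -0.19 ± 0.05 (SD; adjusted p = 0.00168) against -0.16 ± 0.05 (SD; adjusted p = 0.017) over siScramble. *Pola2*, the subunit that ties polymerase alpha to primase, was not called, at -0.16 ± 0.11 (SD; adjusted p = 0.0214) and -0.16 ± 0.09 (SD; adjusted p = 0.046).

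Genes that process Okazaki fragments or bind single-stranded DNA were called lower against wt in 3 of 3 cases, beside 8.22% of all features. Against siScramble 0 of 3 were, beside 0.879%. No difference between the comparisons was called for them (limma adjusted p of 0.0543 for *Rpa2*, 0.455 for *Fen1* and 0.982 for *Lig1*). *Rpa2*, of the single-strand binding complex, had log2 ratios of -0.33, -0.30, -0.26 and -0.25 over wt and -0.22, -0.11, 0.0014 and -0.14 over siScramble, where replicate 3 lay at 0. The means were -0.28 ± 0.04 (SD; adjusted p = 0.000112) and -0.12 ± 0.09 (SD; adjusted p = 0.122). *Fen1*, the flap nuclease, was -0.22 ± 0.09 (SD; adjusted p = 0.00206) over wt and -0.13 ± 0.11 (SD; adjusted p = 0.142) over siScramble, and *Lig1*, the ligase that seals the fragments, -0.16 ± 0.02 (SD; adjusted p = 0.0021) and -0.16 ± 0.06 (SD; adjusted p = 0.023). *Chaf1b*, a subunit of the complex that places histones on new DNA, had -0.12, -0.29, -0.20 and -0.40 over wt. Its means were -0.25 ± 0.12 (SD; adjusted p = 0.00248) over wt and -0.14 ± 0.09 (SD; adjusted p = 0.0734) over siScramble, where its highest replicate was -0.01.

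Among the mitosis genes, all 3 measured cyclins fell against both controls, beside 8.22% and 0.879% of all features called lower. None of their calls against siScramble was kept whichever replicate was left out. *Ccnb2*, a B-type cyclin of mitosis, had log2 ratios of -0.42, -0.34, -0.45 and -0.35 over wt and -0.48, -0.43, -0.31 and -0.27 over siScramble. Its means were -0.39 ± 0.05 (SD, n = 4; adjusted p = 2.28e-05) and -0.37 ± 0.10 (SD, n = 4; adjusted p = 0.00258), which correspond to 76.2% and 77.2% of the control levels. *Ccnb1*, the main mitotic B-type cyclin, had -0.36, -0.24, -0.23 and -0.29 over wt and -0.34, -0.26, -0.39 and -0.33 over siScramble, with means of -0.28 ± 0.06 (SD; adjusted p = 0.000223) and -0.33 ± 0.06 (SD; adjusted p = 0.00125). Its 2 probes gave -0.40 and -0.16 over wt, and -0.33 and -0.32 over siScramble. With si*Pax8* in Cy5 alone *Ccnb1* was -0.07 over wt (limma adjusted p = 0.215) and -0.15 over siScramble (limma adjusted p = 0.0623). In Cy3 alone it was -0.49 and -0.51.

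*Ccna2*, the cyclin of S and G2 phase, fell in both comparisons, with -0.19 ± 0.07 (SD; adjusted p = 0.00282) over wt and -0.30 ± 0.04 (SD; adjusted p = 0.00113) over siScramble, with -0.34, -0.27, -0.32 and -0.27 in the replicates of the latter. All 4 replicates of each of the 3 cyclins lay below -0.10 in both comparisons. *Cdk1*, the kinase they activate, fell against wt, with -0.17, -0.24, -0.32 and -0.39 and a mean of -0.28 ± 0.09 (SD; adjusted p = 0.000583), and was -0.20 ± 0.09 (SD; adjusted p = 0.02) over siScramble. *Cdc25b*, a phosphatase that activates it, had -0.23, -0.03, -0.21 and -0.20 over wt, where replicate 2 stood apart. It was not called, at -0.17 ± 0.09 (SD; adjusted p = 0.00933) and -0.11 ± 0.07 (SD; adjusted p = 0.086).

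Of the measured mitotic kinases, 2 fell and 1 rose against wt, beside 8.22% of all features called lower and 6.84% called higher. *Plk1*, the Polo kinase of mitotic entry, had log2 ratios of -0.39, -0.30, -0.22 and -0.32 over wt, a mean of -0.31 ± 0.07 (SD; adjusted p = 0.000157), and of -0.18, -0.20, -0.31 and -0.33 over siScramble, a mean of -0.26 ± 0.07 (SD; adjusted p = 0.00538). *Aurka*, the Aurora kinase of the spindle poles, fell against wt at -0.36 ± 0.07 (SD; adjusted p = 7.69e-05) and stood just above the threshold over siScramble at -0.21 ± 0.04 (SD; adjusted p = 0.00508). All 8 values of *Aurka* were below -0.10.

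*Aurkb*, the Aurora kinase of the chromosomal passenger complex, was higher in every replicate. Its log2 ratios were 0.17, 0.43, 0.31 and 0.34 over wt and 0.35, 0.39, 0.29 and 0.38 over siScramble. The means were 0.31 ± 0.11 (SD, n = 4; adjusted p = 0.000487) and 0.36 ± 0.04 (SD, n = 4; adjusted p = 0.000721), or 124.3% and 127.9% of the control levels, and no value of any other member reached the lowest of these. It was measured by 1 probe. Without replicate 3 its adjusted p over wt was 0.00508, and without replicate 2 it was 0.0107 over siScramble, both above the threshold. Its partner in the same complex, *Birc5*, moved the other way and was the lowest member over wt.

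*Birc5* encodes survivin, which acts in the chromosomal passenger complex and inhibits apoptosis. It had log2 ratios of -0.53, -0.65, -0.81 and -0.72 over wt, with a mean of -0.67 ± 0.12 (SD, n = 4; adjusted p = 7.71e-06), or 62.7% of the wt level. Over siScramble they were -0.17, -0.39, -0.38 and -0.43, with a mean of -0.34 ± 0.12 (SD, n = 4; adjusted p = 0.0053), which misses the threshold although all 4 values were below -0.15. Its largest value over siScramble, in replicate 1, was -0.17, while the other 3 lay between -0.43 and -0.38.

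*Pttg1*, or securin, the protein that holds separase inactive until anaphase, had log2 ratios of -0.27, -0.47, -0.45 and -0.48 over wt and -0.11, -0.22, -0.18 and -0.26 over siScramble. The means were -0.42 ± 0.10 (SD; adjusted p = 6.78e-05) and -0.19 ± 0.06 (SD; adjusted p = 0.0116). *Cdc20*, the activator of the anaphase-promoting complex, was -0.16 ± 0.09 (SD; adjusted p = 0.0122) and -0.20 ± 0.04 (SD; adjusted p = 0.00591), and was not called in either comparison. All 16 values of the 2 genes were below 0.

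Of the spindle genes, *Kif2c*, a kinesin that depolymerizes microtubules at centromeres, fell in both comparisons, with -0.35, -0.14, -0.20 and -0.26 over wt and -0.22, -0.21, -0.27 and -0.39 over siScramble and means of -0.24 ± 0.09 (SD; adjusted p = 0.00123) and -0.27 ± 0.08 (SD; adjusted p = 0.00485). *Spag5*, or astrin, a spindle protein, fell against wt at -0.21 ± 0.08 (SD; adjusted p = 0.00199) and was -0.20 ± 0.08 (SD; adjusted p = 0.0147) over siScramble. *Stmn1*, or stathmin, which destabilizes microtubules, was the reverse case. Its log2 ratios were -0.009, -0.04, -0.08 and -0.10 over wt and -0.24, -0.27, -0.20 and -0.33 over siScramble, so that every value over siScramble was lower than every value over wt, with means of -0.06 ± 0.04 (SD; adjusted p = 0.232) and -0.26 ± 0.05 (SD; adjusted p = 0.00316). *Kif22*, a chromosome-binding kinesin, was not called, at -0.08 ± 0.08 (SD; adjusted p = 0.14) and -0.23 ± 0.10 (SD; adjusted p = 0.014), and its ratio was likewise the lower one over siScramble. *Lmnb1*, a lamin of the nuclear envelope and the 1 other member measured, had -0.37, -0.14, -0.22 and -0.20 over wt. Its means were -0.23 ± 0.10 (SD; adjusted p = 0.00214) over wt and -0.23 ± 0.06 (SD; adjusted p = 0.00608) over siScramble.

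Set side by side, S phase and mitosis members had almost the same median over wt and a lower median for mitosis over siScramble. Over wt the median of the 13 S phase members was -0.26, -0.27, -0.21 and -0.26 in replicates 1 to 4 and that of the 15 mitosis members -0.29, -0.22, -0.21 and -0.26. The mitosis median minus the S phase median was -0.04, 0.05, 0.0027 and -0.0064, a mean of 0.0023 ± 0.04 (SD, n = 4), which is smaller than the spread between replicates. Over siScramble the S phase medians were -0.18, -0.11, -0.16 and -0.21 and the mitosis medians -0.19, -0.22, -0.24 and -0.27. The difference there was -0.01, -0.11, -0.07 and -0.06, a mean of -0.06 ± 0.04 (SD, n = 4), with the mitosis median the lower one in 4 of 4 replicates. No test was made of these medians, and their order over wt changed with dye orientation, as given below. In calls, 11 of 13 S phase and 10 of 15 mitosis members fell against wt, beside 8.22% of all features. Against siScramble 1 of 13 and 5 of 15 fell, beside 0.879%. By role, the medians over wt ran from -0.15 for the 4 spindle and cytokinesis genes to -0.29 for the 2 checkpoint and anaphase genes and -0.31 for the 3 mitotic kinases, leaving out roles with 1 gene. Over siScramble they ran from -0.13 for the 3 fragment processing genes to -0.30 for the 5 genes of cyclins and *Cdk1*.

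**Figure D3:**
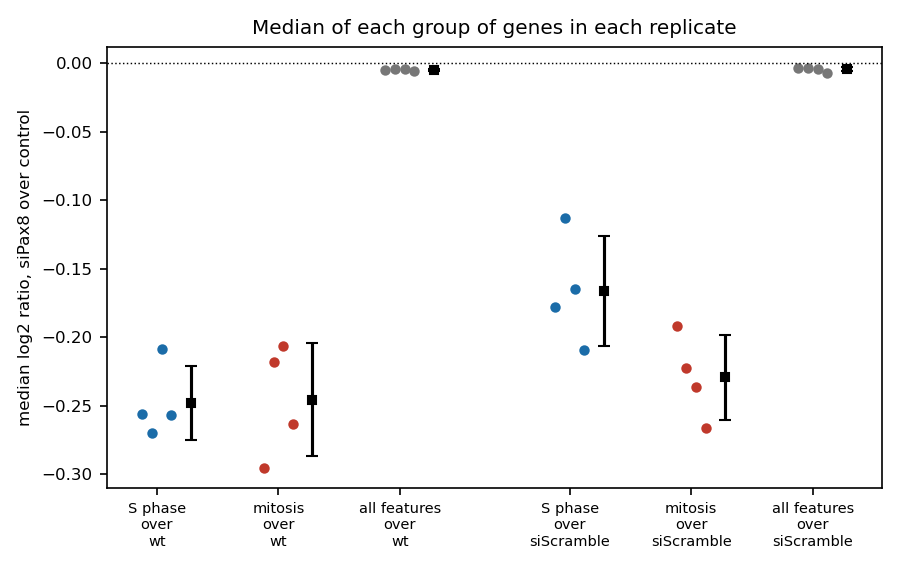
Median log2 ratio of si*Pax8* over control in each of the 4 replicates (points) for S phase members, mitosis members and all features, with the mean of the 4 medians and its SD beside them (square and bar). All medians of the members lie between -0.30 and -0.11, those of all features at 0 within 0.01, and over siScramble the mitosis points lie lower than the S phase points of the same replicate.

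Whether a member differed between the comparisons was tested on the 4 averaged ratios over wt against the 4 over siScramble. Since si*Pax8* cells are common to both, this difference equals an indirect log2 ratio of siScramble over wt cells. *Prim2* was the only member called, at -0.23 (limma adjusted p = 0.00328), and 1 of 29 is close to the 3.4% of all features called. Without replicate 2, 3 or 4 no member was called, at 1.01%, 0.871% and 1.35% of all features. At an adjusted p below 0.05, 5 members differed in the fit of all replicates, beside 10.2% of all features. After *Prim2* these were *Stmn1*, at 0.20 in the opposite direction (adjusted p = 0.00811), *Birc5* at -0.33 (adjusted p = 0.0117), *Pttg1* at -0.22 (adjusted p = 0.0225) and *Prim1* at -0.45 (adjusted p = 0.0354). With the replicate number as a block, *Birc5* (adjusted p = 0.000715), *Prim1* (0.00192) and *Pttg1* (0.00395) passed the threshold too and *Stmn1* did not (0.00678), but the correlation of equal replicate numbers between the comparisons was only 0.05 for replicate 3. For the remaining members that fell against wt and were not called against siScramble, no difference between the comparisons was called, so those counts alone do not show that the controls differ.

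Dye orientation changed the size of the ratios more than their side of 0. With si*Pax8* in Cy5 the median of the 29 members was -0.18 over wt and -0.15 over siScramble, and with si*Pax8* in Cy3 it was -0.27 and -0.26. The mean of the 4 arrays was below 0 in both orientations for 24 members over wt and for 26 over siScramble, and *Aurkb* was above 0 in both orientations of both comparisons. The widest gaps between orientations were those of *Ccnb1* over wt, at -0.07 in Cy5 and -0.49 in Cy3, and of *Cdk1* over siScramble, at -0.45 and 0.06. Over wt the mitosis median was -0.12 in Cy5 and -0.28 in Cy3, and the S phase median -0.18 and -0.27. Over siScramble the mitosis median was -0.15 and -0.31, and the S phase median -0.12 and -0.21. Within single slides, the median of the members ran from -0.28 to -0.19 over wt and from -0.23 to -0.19 over siScramble, so it was below 0 on each of the 4 slides.

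**Figure D4:**
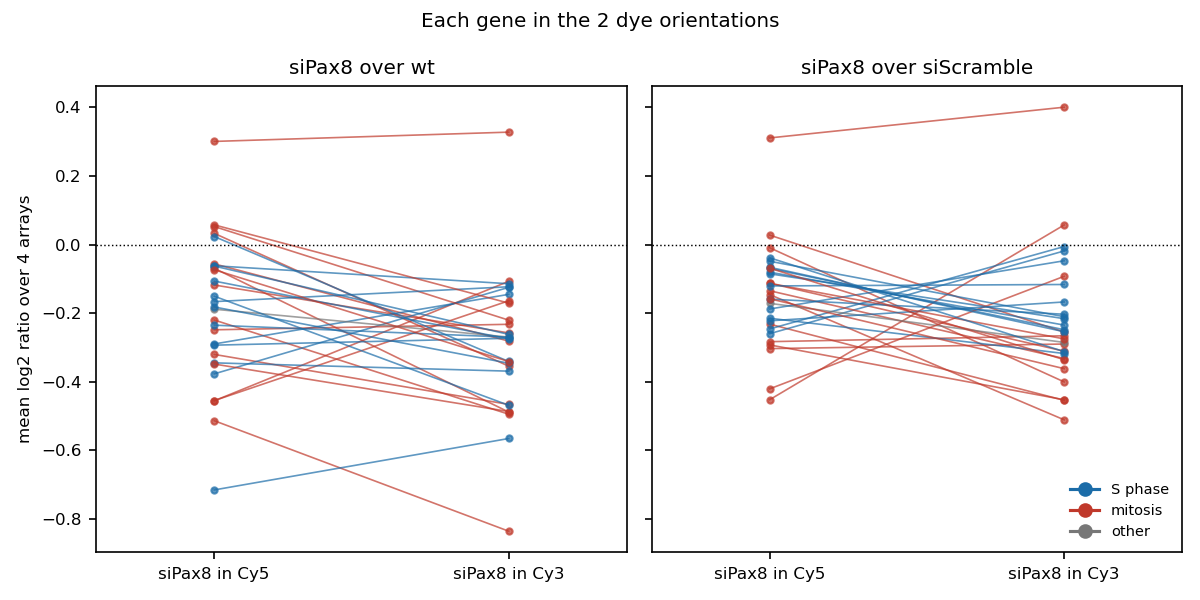
Mean log2 ratio over the 4 arrays with si*Pax8* in Cy5 and over the 4 with si*Pax8* in Cy3, 1 line per gene, over wt (left) and over siScramble (right). Of the 29 lines, 20 over wt and 19 over siScramble end lower in Cy3, and the line of *Aurkb* stays above 0 in both panels.

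Further genes of both processes, taken from separate lists, had medians closer to 0. Of 40 further replication genes 17 were measured, with a median of -0.10 over wt and -0.08 over siScramble. In this list 6 fell and 0 rose against wt, beside 8.22% of all features called lower and 6.84% called higher. Against siScramble 0 of 17 were called, beside 0.879% and 1.2%, so this count is near the shares of all features. The largest calls were *Tipin* and *Timeless*, partners that protect stalled forks, and *Orc6*, a subunit of the origin recognition complex. *Tipin* was -0.44 ± 0.08 (SD; adjusted p = 3.08e-05) over wt and -0.09 ± 0.08 (SD; adjusted p = 0.222) over siScramble, *Timeless* -0.36 ± 0.02 (SD; adjusted p = 1.80e-05) and -0.19 ± 0.07 (SD; adjusted p = 0.0137), and *Orc6* -0.42 ± 0.11 (SD; adjusted p = 9.21e-05) and -0.21 ± 0.10 (SD; adjusted p = 0.0203). By contrast *Orc2*, *Orc3*, *Orc4* and *Orc5*, of the same complex as *Orc1* and *Orc6*, had ratios between -0.10 and 0.10 over wt and were not called.

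Of 56 further mitosis genes 15 were measured, with a median of -0.14 over wt and -0.18 over siScramble. In this list 6 fell against wt, beside 8.22% of all features called lower, and 0 rose. Against siScramble 2 fell, *Cenpt* of the inner kinetochore and the kinesin *Kifc1*, beside 0.879%, and 0 rose. The largest calls against wt were *Knstrn*, a spindle and kinetochore protein, at -0.41 ± 0.04 (SD; adjusted p = 1.34e-05), *Tacc3*, which stabilizes spindle fibres, at -0.35 ± 0.10 (SD; adjusted p = 0.000188), and *Kifc1* at -0.28 ± 0.04 (SD; adjusted p = 0.000156). Over siScramble these genes were -0.24 ± 0.08 (SD; adjusted p = 0.0074), -0.21 ± 0.08 (SD; adjusted p = 0.0131) and -0.22 ± 0.03 (SD; adjusted p = 0.00348). The 9 thyroid identity genes, *Pax8* among them, had a median of -0.61 over wt, where 8 fell, beside 8.22% of all features. Over siScramble their median was -0.15, and *Tg* and *Dio1* fell there, beside 0.879%.

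**Figure D5:**
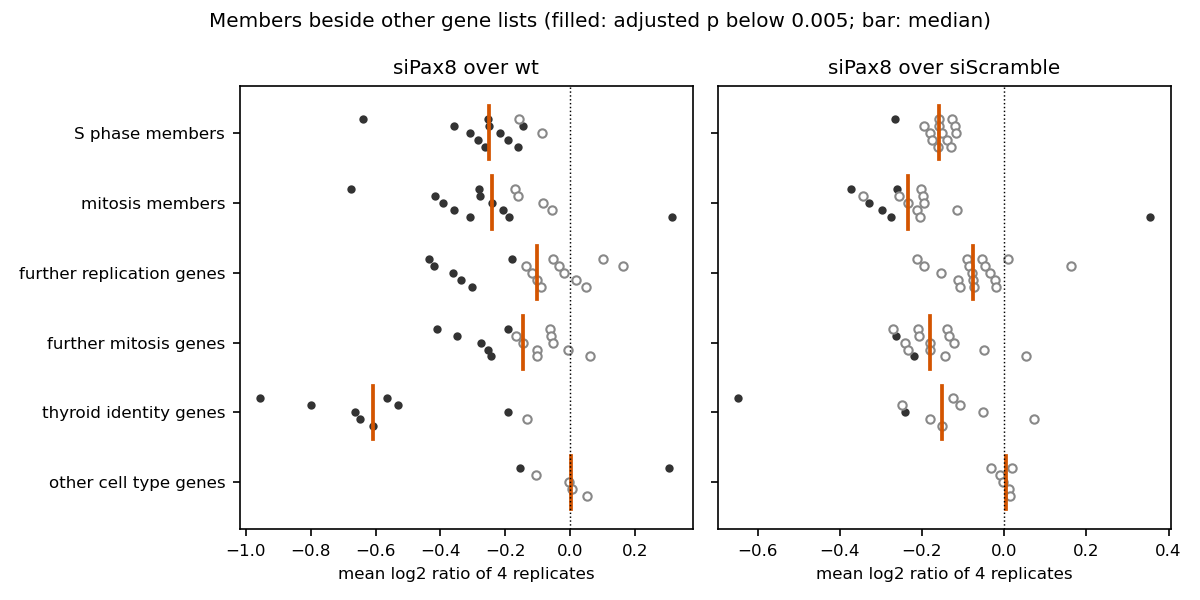
Mean log2 ratio of each measured gene over wt (left) and over siScramble (right) for the S phase and mitosis members and the other lists, filled where the limma adjusted p is below 0.005, with a bar at the list's median. The bars of both member groups lie left of those of the further lists over wt, and the bar of the thyroid identity genes lies at -0.61 over wt and -0.15 over siScramble.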

How the data were processed

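The authors deposited 1 Agilent scanner file per array with mean spot intensities and median local backgrounds in Cy3 and Cy5 (Feature Extraction 10.1.1.1 at 5 µm per the file headers), spot flags, dye-normalized processed intensities and log10 ratios, together with normalized log2 ratios of all arrays in a single table. These deposited log2 values correlated between -0.999 and -0.993 with the ratios computed here, which makes them control over si*Pax8* ratios. The column medians lay between -0.000112 and 0.0068, the slopes between -1.05 and -0.95, and the centring is not given in the sources used here. The log10 ratios were not used.

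For the values used here, limma 3.58.1 in R 4.3.3 was applied to the intensities, by normexp (offset 50), loess within arrays with control and outlier spots at a weight of 0, removal of 1639 control spots of 45018 per array, and quantile normalization. Log2 ratios were signed by the dye labels and averaged over spots, over probes of a gene, and over the dye swap of a replicate. Each comparison was fitted to 4 values per feature with lmFit and eBayes (statmod 1.5.0, data.table in version 1.17.8), with Benjamini-Hochberg adjustment over 39143 features and a threshold of 0.005. SDs are over the 4 replicates, and the number of arrays limits the precision. RefSeq named 10768 of 41012 probes. The fit was checked on simulated data. Promoters were searched in Python 3.11.15 (pandas 2.3.3, matplotlib 3.10.9).

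Equal replicate numbers were checked by correlating deviations from the mean of the 4 replicates over features with a mean log2 intensity above 8. The array pairs of a dye swap gave 0.33, 0.12, 0.40 and 0.47 against wt and 0.47, 0.57, 0.59 and 0.34 against siScramble. For replicate 2 against wt another replicate number gave a higher value, 0.20, so its pairing rests on the labels. Between the comparisons equal numbers gave 0.40, 0.18, 0.05 and 0.57, while for replicates 2 and 3 another number gave 0.41. The replicate block across comparisons therefore served as an alternative only. The members, gene lists and motifs were chosen with earlier results of these data known. The rule for full values took members past the threshold in either comparison and the 3 members with the highest ratio in each, and, of the further lists, the 3 largest changes past the threshold against wt. Alternatives covered background, normalization, probes, dye, slide, blocks and each replicate left out. Additional measurements of the study were not analysed here.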

Additional observations from a re-analysis of the deposited data

Results flagged for a closer look

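Among the 58 sets of 4 replicates (29 members in 2 comparisons), 3 held a replicate far from the other 3, where chance marks about 1 set in 20. *Cdc25b* over wt was -0.034 in replicate 2 and between -0.23 and -0.20 in the others. *Rfc2* over wt was -0.38 in replicate 4 and -0.29 in the others. *Orc1* over siScramble was -0.25 in replicate 3 and -0.27 in the others, a small gap within a narrow spread. *Prim2* differed between the comparisons, by -0.23 over wt minus over siScramble (limma adjusted p = 0.00328).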

How the results depend on the processing

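In every alternative fit, 28 of 29 members lay below 0 in both comparisons, except with si*Pax8* in Cy5 alone (24 over wt and 27 over siScramble) and in Cy3 alone (28 and 27). Adding a block or a dye term, or fitting both comparisons together, left the ratios of the main fit unchanged. In those fits this count could not move. Leaving out a replicate could move it only for members with replicates on both sides of 0. The number called moved. The share of all features called the same way in the same fit stands in brackets. Against wt 22 members were called lower (8.22%), and 1 with Agilent's processed signals (1.81%). There were 14 with si*Pax8* in Cy3 alone (4.36%), 16 in Cy5 alone (10.3%) and 12 to 22 without 1 replicate (4.4% to 9.16%). In Cy5 alone fewer members were thus called than in the main fit, while the share of all features was higher. Against siScramble 6 were called lower (0.879%), 21 at an adjusted p below 0.05 (4.78%), 0 with processed signals (0.0128%), 16 with both comparisons in one fit (2.13%), 15 with a dye term and the replicate block (2.64%), 14 with the slide as a random block (3.04%), 3 with loess alone (0.416%), 19 with si*Pax8* in Cy3 alone (4.42%), 0 in Cy5 alone (0.161%), and 0 to 2 without 1 replicate (0.0843% to 0.332%). The number called higher was 1 (*Aurkb*) in each comparison, where 2679 of 39143 features were called higher over wt and 469 over siScramble. With processed signals it was 0 in both, beside 834 and 24 features. It was 0 in Cy3 alone against wt, beside 1579 features, and 0 in Cy5 alone against siScramble, beside 123. Without 1 replicate it was 0 to 1 in both, beside 1564 to 2898 features over wt and 77 to 280 over siScramble. With the replicate block inside each comparison 21 fell against wt (8.77%) and 9 against siScramble (1.97%). Between the comparisons 1 member was called (3.4%), 5 at an adjusted p below 0.05 (10.2%), 2 with the brightest probe per gene (3.4%), 4 with the replicate block (5.65%), 0 with processed signals (1.02%), without background correction (3.84%), in Cy5 alone (1.88%) and in Cy3 alone (1.41%), and 0 to 1 without 1 replicate (0.871% to 2.58%). The causes were not tested, other than that leaving out a replicate leaves fewer samples.

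The mitosis median over wt was -0.12 in Cy5 alone and -0.31, -0.19 and -0.19 within slides 1, 2 and 3. Over siScramble it was -0.31 in Cy3 alone, -0.15 in Cy5 alone and -0.27 to -0.23 without 1 replicate. The S phase median over wt was -0.22 with loess alone, -0.18 in Cy5 alone, -0.22 within slides 2 and 4 and -0.26 to -0.20 without 1 replicate, and over siScramble -0.21 in Cy3 alone and within slide 4. With si*Pax8* in Cy5 alone *Cdc20* (0.033), *Kif22* (0.052), *Pola2* (0.023) and *Stmn1* (0.057) lay above 0 over wt and *Cdc25b* (0.027) over siScramble, and in Cy3 alone *Cdk1* (0.057) over siScramble. Of the single members' values under the alternatives, 76 over wt and 42 over siScramble lost their call and 3 and 47 gained one. All probes of the members were well above background.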
